A study of Homo sapiens with 6 samples.

Results

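The aminoacyl-tRNA synthetases are the enzymes that attach each amino acid to its tRNA. The deposited table was searched for gene symbols made of the letter of an amino acid, ARS and an optional 1, 2, 3, A or B, with EPRS1 added by name, and 38 of its 63241 genes matched. All 38 are annotated there as tRNA synthetases. The suffix 2 marks the enzymes of mitochondria, and by it 17 genes were mitochondrial and 21 cytosolic. FARSA and FARSB encode the 2 kinds of subunit of the cytosolic phenylalanine enzyme, and EPRS1 encodes a fused enzyme for glutamate and proline. GARS1 and KARS1 supply both compartments, and TARS3 is a second cytosolic threonine enzyme.

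Both sets are nuclear genes, and the mitochondrial enzymes are imported to charge the tRNAs of the mitochondrial genome. Several cytosolic enzymes sit together in the multi-synthetase complex, which is held by the scaffold proteins AIMP1, AIMP2 and EEF1E1. Uncharged tRNA activates the kinase GCN2 (gene EIF2AK4), which phosphorylates eIF2 and favours translation of the transcription factor ATF4. ATF4 in turn acts on many cytosolic synthetase genes through a composite C/EBP-ATF element.

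The RNA came from T24, a human cell line established from a bladder cancer, and was sequenced as 3 siUSP43 libraries, whose genotype label reads USP43 knockdown, and 3 siNC libraries from cells given a control small interfering RNA and labelled WT. USP43 is a deubiquitinating enzyme, and the series was designed to ask how it bears on lipid metabolism. All cells were grown alike in RPMI medium with fetal bovine serum, and all libraries carry the same batch label. The time after transfection, the duplex sequences and whether replicates were separate cultures are not given in the sources used here, and the p-values therefore speak only to library-to-library spread, which may be technical.

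Total gene counts ran from 21430574 to 25577200 in siUSP43 and from 24049555 to 24594508 in siNC libraries. USP43 had 1.02, 0.67 and 0.80 FPKM (fragments scaled to exonic size and library total) in siUSP43 libraries, against 2.36, 2.09 and 2.08 FPKM in siNC libraries, a log2 fold change of -1.40 (SE 0.14, adjusted p = 5.63e-06) that stood at -0.80 with limma on log2(FPKM + 1). The groups did not overlap. The epithelial markers KRT7, KRT8 and KRT18 lay between 86.2 and 240.2 FPKM in all 6 libraries, while PTPRC, CD3E, PECAM1, CDH5, DCN and LUM stayed at or under 0.09 FPKM. KRT19, also epithelial, was lower than the other keratins, at 8.82 to 12.4 FPKM. EPCAM, another epithelial marker, was low, at 1.18 to 1.30 FPKM in siUSP43 and 0.48 to 0.73 FPKM in siNC libraries. CD14 had 0.41 to 0.56 FPKM in siUSP43 and 0.89 to 1.06 FPKM in siNC libraries.

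The upstream sequence of the synthetase genes is shown first, since ATF4 is the best known regulator of the family. RefSeq start windows (build GRCh38.p14, 250 bases before to 50 after the annotated start, some genes with more than 1) were held for 30 of the 38 genes, 16 cytosolic and 14 mitochondrial. The letters TGATGNAA, which make up the core of the C/EBP-ATF element, were searched on both strands. They were found for 7 of the 16 cytosolic genes and for 1 of the 14 mitochondrial genes, YARS2, against 4.46% of all 27305 genes with a window and 2.49% of the 8587 of these that were tested. Of all 35116 windows of this length, 3.62% held the letters. A match of letters is a description and not a binding site.

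The 30 bases around each of the 7 cytosolic matches follow, read 5′ to 3′ on the strand of the gene, with the matched letters in capitals.
AARS1 (chr16:70289675-70289704, minus strand): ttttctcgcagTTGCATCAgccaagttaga
CARS1 (chr11:3057407-3057436, minus strand): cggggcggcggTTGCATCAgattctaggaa
GARS1 (chr7:30594834-30594863, plus strand): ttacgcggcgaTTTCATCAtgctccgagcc
IARS1 (chr9:92293692-92293721, minus strand): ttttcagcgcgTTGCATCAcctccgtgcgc
MARS1 (chr12:57488053-57488082, plus strand): gccggttccggTTGCATCAgcgagggattc
NARS1 (chr18:57621804-57621833, minus strand): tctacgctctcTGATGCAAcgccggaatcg
TARS1 (chr5:33440956-33440985, plus strand): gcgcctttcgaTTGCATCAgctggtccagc

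In AARS1 the match began 187 bases before the annotated start, and in the other 6 genes between 33 bases before and 14 bases after it. Of the 7 genes 6 carried the same 8 letters, read on either strand, and GARS1 differed at the open position N.

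Of the 38 genes, 36 had a mean of at least 1 FPKM over the 6 libraries and were tested. The exceptions were SARS2 and VARS2, both mitochondrial. FPKM is scaled to exonic size, so levels can be set side by side between genes. The deposited exonic sizes can far exceed the coding length, with 22418 bases for IARS1 against 3786 coding bases, and this lowers the FPKM of such genes. The 21 cytosolic genes had a median of 23.0 FPKM in siUSP43 and 20.7 FPKM in siNC libraries, and the 17 mitochondrial genes one of 3.31 FPKM in siUSP43 and 3.06 FPKM in siNC. In siNC the cytosolic median was thus 6.77 times the mitochondrial one, and 5.06 times when counts were scaled to coding length, a scaling chosen after the data were seen.

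**Figure D1:**
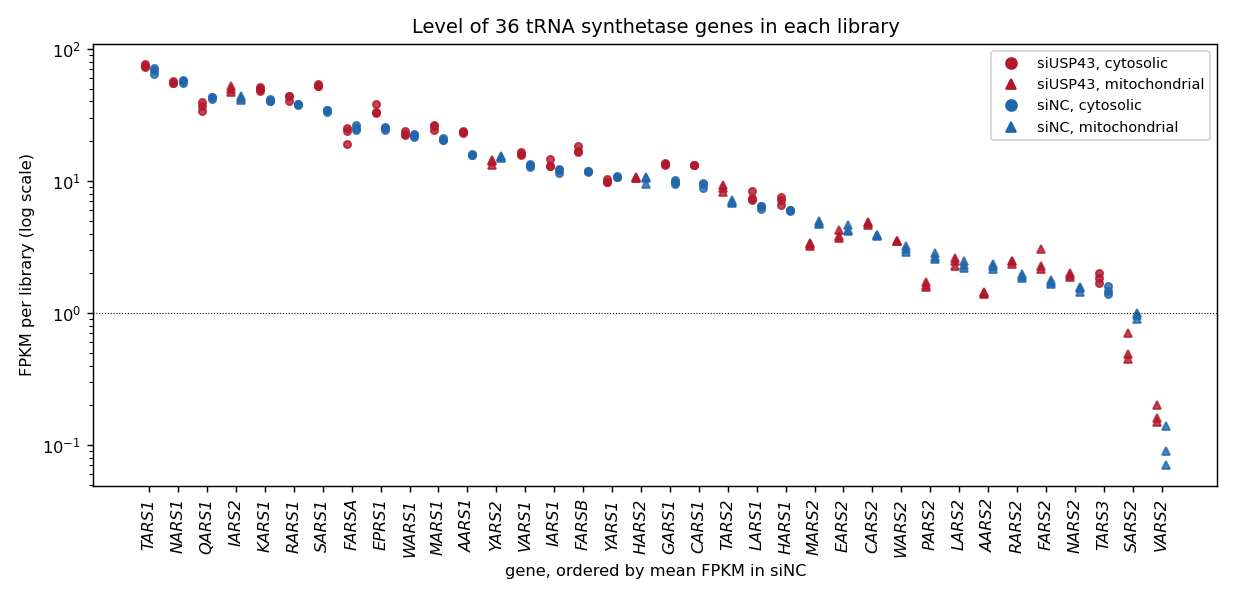
FPKM of 36 synthetase genes in each of the 3 siUSP43 (red) and 3 siNC (blue) libraries on a log axis, with circles for cytosolic and triangles for mitochondrial enzymes and a dotted line at 1 FPKM. Cytosolic genes fill most of the upper part of the order, IARS2 stands among them at rank 4, and SARS2 and VARS2 lie at the bottom.

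TARS1, the threonine enzyme, led the order in siNC at 68.8 ± 3.68 FPKM, followed by NARS1, the asparagine enzyme, at 56.8 ± 1.54 FPKM (SD, n = 3 each). The siNC ranges of these neighbours did not overlap. QARS1, the glutamine enzyme, IARS2, the mitochondrial isoleucine enzyme, and KARS1, the lysine enzyme, came next at 42.9, 42.3 and 40.9 FPKM. The ranges of QARS1 and IARS2 overlapped, and so did those of IARS2 and KARS1. IARS2 was the only mitochondrial gene among the first 13. By counts per kilobase of coding sequence it ranked 12, NARS1 and TARS1 changed places at the head, and WARS1, the tryptophan enzyme, moved to rank 3 where it had been at rank 11. GARS1 moved by the same scaling to rank 7 where it had been at rank 20. At the low end VARS2 had 25 to 38 counts per siUSP43 library and 14 to 25 per siNC library, or 0.15 to 0.20 and 0.07 to 0.14 FPKM.

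Most cytosolic synthetase genes were higher in siUSP43. Of the 21 tested, 15 rose, 2 fell and 4 did not pass (edgeR, Benjamini-Hochberg adjusted p under 0.05). Over all 11417 tested genes 28.0% rose and 28.1% fell, or 56.1% in either direction. The median log2 fold change was 0.26 for the cytosolic genes and -0.01 for all tested genes, and the values of single genes ran from -0.24 to 0.62. In bulk RNA, a change in RNA per cell and a change in the share of cells with the transcript cannot be told apart. The 3 siUSP43 libraries lay above all 3 siNC libraries for 16 of the 21 genes, where this held for 32.5% of all tested genes, and below them for 2, where this held for 29.6%, so 18 of 21 had groups apart, against 62.2% of all tested genes.

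**Figure D2:**
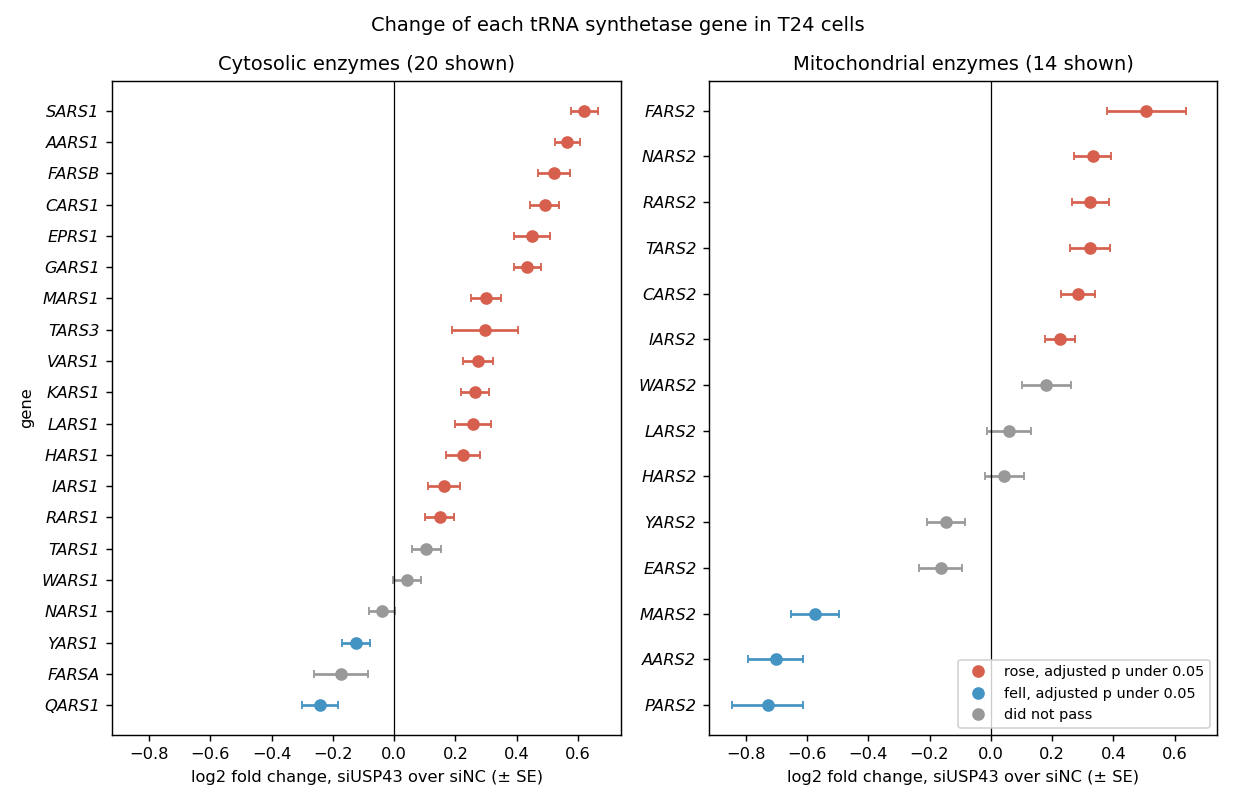
Log2 fold change of siUSP43 over siNC with its SE for 20 cytosolic and 14 mitochondrial synthetase genes, coloured by whether the gene rose, fell or did not pass. Most cytosolic genes lie right of 0, with SARS1 highest at 0.62. The mitochondrial genes include PARS2, AARS2 and MARS2 at -0.73, -0.70 and -0.57.

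SARS1 (ENSG00000031698, GRCh38 chromosome 1, 109213918 to 109238182, plus strand), which charges serine tRNA and the selenocysteine tRNA, had 52.64, 53.94 and 52.16 FPKM in siUSP43 libraries, against 33.30, 34.28 and 34.44 FPKM in siNC libraries. Its log2 fold change of 0.62 (SE 0.04, adjusted p = 3.68e-07) was the highest of the 36 tested synthetase genes. AARS1 (ENSG00000090861, chromosome 16, 70251983 to 70289707, minus strand), the alanine enzyme, had 23.57, 23.80 and 23.21 FPKM in siUSP43 libraries, against 15.90, 15.62 and 15.62 FPKM in siNC libraries, a log2 fold change of 0.57 (SE 0.04, adjusted p = 4.92e-07). For both genes the groups stood far apart beside the spread within each. AARS1 is one of the genes with the ATF4-type letters upstream, while the SARS1 windows held none.

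FARSB, the beta subunit of the phenylalanine enzyme, had 16.77, 18.35 and 16.65 FPKM in siUSP43 libraries, against 11.91, 11.93 and 11.79 FPKM in siNC libraries. It rose by 0.52 on the log2 scale (SE 0.05, adjusted p = 5.71e-06). FARSA, the alpha subunit of the same enzyme, had 23.76, 25.12 and 19.18 FPKM in siUSP43 libraries, against 24.19, 25.09 and 26.55 FPKM in siNC libraries. Its groups overlapped, with siUSP43 replicate 3 lowest, and its log2 fold change of -0.17 (SE 0.09, adjusted p = 0.111) did not pass. The subunits assemble into 1 enzyme, but only the beta subunit's transcript rose. FARSA passed as a decrease when siUSP43 replicate 2 was left out (log2 fold change -0.25) and without a filter on low values (-0.17).

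CARS1, the cysteine enzyme, had 13.18, 13.27 and 13.22 FPKM in siUSP43 libraries, against 8.83, 9.64 and 9.44 FPKM in siNC libraries, and its log2 fold change was 0.49 (SE 0.05, adjusted p = 5.22e-06). EPRS1 had 33.59, 32.53 and 38.02 FPKM in siUSP43 libraries, against 25.78, 25.25 and 24.41 FPKM in siNC libraries, and rose by 0.45 (SE 0.06, adjusted p = 4.83e-05). GARS1, the glycine enzyme, had 13.33, 13.22 and 13.75 FPKM in siUSP43 libraries, against 10.18, 9.77 and 9.54 FPKM in siNC libraries, and rose by 0.43 (SE 0.04, adjusted p = 6.03e-06). None of these 3 genes had overlapping groups, and for EPRS1 replicate 3 stood above the other siUSP43 libraries.

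MARS1, the methionine enzyme, had 26.09, 26.75 and 24.54 FPKM in siUSP43 libraries, against 20.39, 20.51 and 21.26 FPKM in siNC libraries, a log2 fold change of 0.30 (SE 0.05, adjusted p = 2.59e-04). Its groups did not overlap. MARS1 overlaps DDIT3 on the other strand, itself higher in siUSP43 by 0.41, and strand use is not given in the sources used here, so the origin of reads in the overlap is uncertain. In all, 12 of the 38 genes overlap another tested gene, among them AARS1, KARS1, HARS1, HARS2, WARS1, YARS1 and CARS2. The longest such overlap, counted over gene spans, is that of YARS2 with DNM1L on the other strand, at 18161 bases. DNM1L had a mean of 17.1 FPKM, so the level and change of YARS2 carry the same uncertainty. Untested genes cover all or nearly all of the span of MARS2 (3027 bases), SARS2 (15360 bases) and VARS2 (12255 bases) on the same strand. On the other strand, an untested gene covers that of AARS2 (14617 bases). These partners had means of 0.09 FPKM or less. How shared reads were counted is not given, so the levels and changes of these genes are uncertain as well.

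Smaller increases were found for TARS3 (0.30), VARS1, the valine enzyme (0.27), KARS1 (0.26), LARS1, the leucine enzyme (0.26), HARS1, the histidine enzyme (0.22), IARS1 (0.16) and RARS1, the arginine enzyme (0.15), all as log2 fold changes. The calls of TARS3, IARS1 and RARS1 ended in 6, 4 and 4 alternative analyses, among them those without siNC replicate 2, where the values were 0.25, 0.16 and 0.13. TARS3 was at 0.24 without siUSP43 replicate 3 and at 0.19 with limma on log2(FPKM + 1), and was tested from only 182 to 270 counts per library. For all 7 genes the groups did not overlap.

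The genes that did not follow were QARS1, YARS1, NARS1, WARS1, TARS1 and FARSA. QARS1 had 36.90, 39.67 and 33.70 FPKM in siUSP43 libraries, against 43.62, 41.61 and 43.55 FPKM in siNC libraries, and fell by 0.24 on the log2 scale (SE 0.06, adjusted p = 0.00449). YARS1, the tyrosine enzyme, had 9.89, 10.36 and 9.87 FPKM in siUSP43 libraries, against 10.65, 10.79 and 11 FPKM in siNC libraries, and fell by 0.12 (SE 0.05, adjusted p = 0.0378). The YARS1 groups did not overlap, yet its call ended in 9 of 17 alternatives, at -0.15 to -0.10 over all of them.

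NARS1 had a log2 fold change of -0.04 (SE 0.04), with 55.25, 54.84 and 57.54 FPKM in siUSP43 libraries, against 58.19, 57.10 and 55.15 FPKM in siNC libraries. WARS1, which interferon gamma is known to induce, had 22.47, 23.80 and 22.85 FPKM in siUSP43 libraries, against 22.62, 22.37 and 21.37 FPKM in siNC libraries, a log2 fold change of 0.04 (SE 0.05). Neither passed, and the groups of both overlapped. TARS1 stood at 0.10 (SE 0.05, adjusted p = 0.0801), with all siUSP43 libraries above the siNC ones. NARS1 and TARS1 carry the same ATF4-type letters as AARS1 and CARS1.

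Of the 7 cytosolic genes with those letters, 5 rose, 0 fell and 2 did not pass, with a median log2 fold change of 0.30. Beside the counts of this paragraph stand the 28.0% of all tested genes that rose and the 28.1% that fell. Of the 9 cytosolic genes whose windows held none, 6 rose and 1 fell, with a median of 0.22. Both medians lie above that of all tested genes, and the difference between these sets was not tested. A list of 12 cytosolic synthetase genes commonly described as ATF4 targets gave a like picture, with 8 that rose, 1 that fell and a median of 0.28, against 7 that rose, 1 that fell and a median of 0.26 among the other 9. The decrease in that list was YARS1.

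The cytosolic enzymes fall into both structural classes. Class I enzymes, which share a Rossmann-fold catalytic domain, included 7 that rose and 2 that fell of 10, with a median log2 fold change of 0.21. Class II enzymes, built on an antiparallel sheet, included 8 that rose and 0 that fell of 11, with a median of 0.30. EPRS1 has a domain of each class and was counted with class I. Of all tested genes 28.0% rose and 28.1% fell, and the difference between the classes was not tested.

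The multi-synthetase complex holds the products of 8 of these genes, and 7 of the 8 rose, beside the 28.0% of all tested genes, with QARS1 as the exception and a median log2 fold change of 0.26. The number that rose was 5 without siNC replicate 2 and in the fit with a replicate block, where IARS1 and RARS1 did not pass. Its scaffold genes moved apart. AIMP2 had 19.27, 20.01 and 16.92 FPKM in siUSP43 libraries, against 12.52, 11.92 and 12.48 FPKM in siNC libraries, and rose by 0.59 (SE 0.07, adjusted p = 3.61e-05). AIMP1 had 7.29, 6.86 and 6.95 FPKM in siUSP43 libraries, against 5.43, 4.76 and 5.13 FPKM in siNC libraries, and rose by 0.44 (SE 0.06, adjusted p = 6.62e-05). EEF1E1, also known as AIMP3, had 9.0, 9.30 and 9.35 FPKM in siUSP43 libraries, against 16.07, 15.47 and 16.11 FPKM in siNC libraries, and fell by 0.80 (SE 0.06, adjusted p = 6.54e-07). The change of EEF1E1 was larger in size than that of any tested synthetase gene, and its groups stood far apart.

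Mitochondrial synthetase genes moved both ways. Of the 15 tested, 7 rose, 3 fell and 5 did not pass, beside the 28.0% and 28.1% of all tested genes that rose and fell. Their median log2 fold change was 0.18, and the range from -0.73 to 0.51 was wider than that of the cytosolic genes. The siUSP43 libraries lay above all siNC libraries for 8 of the 15, against 32.5% of all tested genes, and below them for 4, against 29.6%. Class I members numbered 3 that rose and 1 that fell of 8, and class II members 4 and 2 of 7.

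PARS2 (ENSG00000162396, GRCh38 chromosome 1, 54756898 to 54764523, minus strand), the mitochondrial proline enzyme, had 1.72, 1.63 and 1.57 FPKM in siUSP43 libraries, against 2.66, 2.57 and 2.83 FPKM in siNC libraries, and fell by 0.73 on the log2 scale (SE 0.12, adjusted p = 2.25e-04). AARS2 (ENSG00000124608, chromosome 6, 44298731 to 44313347, minus strand), the alanine enzyme, had 1.41, 1.43 and 1.39 FPKM in siUSP43 libraries, against 2.16, 2.27 and 2.36 FPKM in siNC libraries, and fell by 0.70 (SE 0.09, adjusted p = 3.99e-05). MARS2 (ENSG00000247626, chromosome 2, 197705369 to 197708395, plus strand), the methionine enzyme, had 3.19, 3.40 and 3.33 FPKM in siUSP43 libraries, against 4.98, 4.84 and 4.75 FPKM in siNC libraries, and fell by 0.57 (SE 0.08, adjusted p = 7.62e-05). In each of the 3 genes every siUSP43 library lay below every siNC library. These levels are low, and a limma fit of log2(FPKM + 1) gave -0.48 for PARS2 and -0.44 for AARS2, still past the threshold.

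SARS2, the serine enzyme, was below the filter, with 0.71, 0.45 and 0.49 FPKM in siUSP43 libraries, against 0.90, 1.00 and 0.96 FPKM in siNC libraries, or 35 to 66 counts in siUSP43 and 80 to 90 in siNC. In the fit without a filter its log2 fold change was -0.79 (SE 0.20, adjusted p = 4.13e-04). VARS2 in the same fit stood at 0.76 (SE 0.31, adjusted p = 0.0596). The coding transcripts of MARS2 and PARS2 have 1 and 2 exons in GENCODE 29, the fewest of the family, while those of AARS2 and SARS2 have 22 and 17.

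Another pair of motifs was searched in the same windows on both strands, GCGCA, any base and GCGC for the factor NRF1, which is known to act on many nuclear genes of mitochondria, and CACGTG, the E-box of MYC and related factors. The NRF1 letters were found for 3 of 14 mitochondrial genes (MARS2, PARS2 and IARS2) and 3 of 16 cytosolic genes (SARS1, FARSB and TARS1), against 6.98% of all genes with a window and 14.6% of tested ones. The E-box was found for 3 of 14 mitochondrial genes (MARS2, CARS2 and EARS2) and 1 of 16 cytosolic genes (IARS1). It was found for 8.77% of all genes with a window and 12.9% of tested ones. Of the windows themselves 5.78% held the NRF1 letters and 7.26% the E-box. Among the 6 genes with NRF1 letters MARS2 and PARS2 fell, IARS2, SARS1 and FARSB rose and TARS1 did not pass. MARS2 was the only one with more than 1 NRF1 match at different bases, and its window (GRCh38.p14, chr2:197705119-197705418, plus strand) is printed 5′ to 3′ with both NRF1 matches and the E-box in capitals. No match in it overlaps another.
MARS2: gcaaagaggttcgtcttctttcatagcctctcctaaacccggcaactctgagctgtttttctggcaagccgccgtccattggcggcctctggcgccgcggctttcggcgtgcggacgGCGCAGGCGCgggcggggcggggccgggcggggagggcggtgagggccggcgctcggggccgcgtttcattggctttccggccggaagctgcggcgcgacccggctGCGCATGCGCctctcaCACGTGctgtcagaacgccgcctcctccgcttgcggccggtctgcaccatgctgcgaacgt

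Of the mitochondrial genes that rose, FARS2, the phenylalanine enzyme, had 2.26, 3.04 and 2.15 FPKM in siUSP43 libraries, against 1.72, 1.78 and 1.65 FPKM in siNC libraries. Its log2 fold change was 0.51 (SE 0.13, adjusted p = 0.00566). Replicate 2 stood above the other siUSP43 libraries, and without it the value was 0.34, still past the threshold. In the limma fit with array weights, whose estimation stopped before it converged, FARS2 was at 0.29.

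NARS2, the asparagine enzyme, had 1.88, 2.00 and 1.93 FPKM in siUSP43 libraries, against 1.55, 1.57 and 1.45 FPKM in siNC libraries, and rose by 0.33 (SE 0.06, adjusted p = 6.86e-04). With limma on log2(FPKM + 1) the NARS2 value was 0.22. CARS2, the cysteine enzyme, had 4.92, 4.82 and 4.61 FPKM in siUSP43 libraries, against 3.85, 3.88 and 3.92 FPKM in siNC libraries, and rose by 0.28. RARS2 and TARS2 (0.32 each) and IARS2 (0.23), the arginine, threonine and isoleucine enzymes, also rose. None of these 5 genes had overlapping groups.

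WARS2 (0.18), LARS2 (0.06), HARS2 (0.04), YARS2 (-0.15) and EARS2 (-0.16) did not pass. EARS2, which charges both glutamate and glutamine tRNA in mitochondria, had 3.71, 3.84 and 4.24 FPKM in siUSP43 libraries, against 4.24, 4.63 and 4.20 FPKM in siNC libraries, so its groups overlapped. WARS2 and YARS2 had groups that did not overlap, with adjusted p-values of 0.0721 and 0.0604. WARS2, YARS2 and EARS2 passed in 4, 3 and 2 alternatives.

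Setting the enzymes of the same amino acid against each other removes the scaling of the library. For 18 pairs of a cytosolic and a mitochondrial gene the FPKM ratio was taken in each library. The size of a ratio depends on the exonic sizes of both genes, while its shift between groups does not. In 6 pairs the ratio was higher in every siUSP43 library than in every siNC library, in 6 pairs lower, and in 6 the groups overlapped. Of all tested genes, taken singly, 62.2% had groups apart, which is not a share over ratios of gene pairs. EPRS1 and FARS2 recur among the pairs, so the pairs are not independent. With 3 libraries a group the two-sided exact permutation test has p = 0.1 as its smallest value, which the 12 pairs without overlap reached, and the Benjamini-Hochberg adjusted value over the 18 pairs was 0.15 at the lowest. These ratios are therefore a description.

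**Figure D3:**
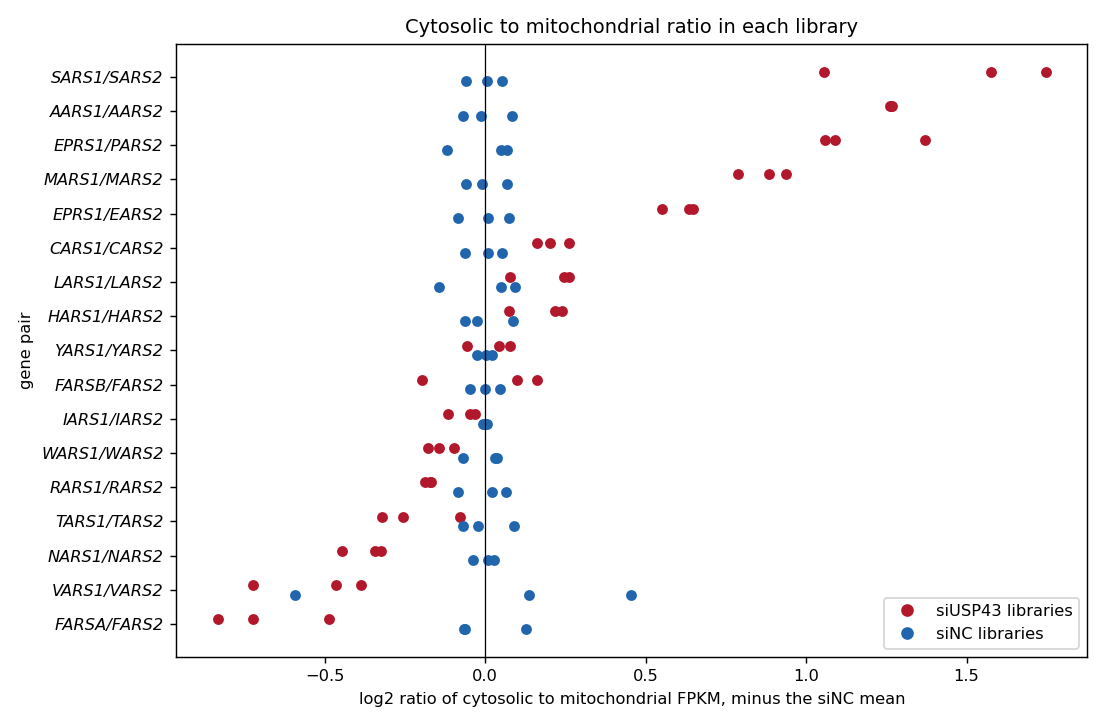
Log2 ratio of cytosolic to mitochondrial FPKM for 17 gene pairs in each siUSP43 (red, upper) and siNC (blue, lower) library, with the siNC mean of each pair set to 0. SARS1/SARS2, AARS1/AARS2, EPRS1/PARS2, MARS1/MARS2 and EPRS1/EARS2 lie to the right in all siUSP43 libraries, by 0.61 to 1.46 on average, and FARSA/FARS2 lies to the left by 0.68.

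AARS1 was 16.7 times AARS2 in siUSP43 and 6.95 times in siNC, a shift of 1.26 on the log2 scale. SARS1 was 98.2 times SARS2 in siUSP43 and 35.7 times in siNC, a shift of 1.46 that rests on the low counts of SARS2. EPRS1 was 21.1 times PARS2 in siUSP43 and 9.36 times in siNC, a shift of 1.17. MARS1 was 7.80 times MARS2 in siUSP43 and 4.27 times in siNC, a shift of 0.87. In these 4 pairs the cytosolic transcript was higher and the mitochondrial one lower, with no overlap of groups in any of the 8 genes. AARS2, SARS2 and MARS2 share all or nearly all of their spans with untested genes. How shared reads were counted is not given, so the ratios with these genes carry that uncertainty.

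**Figure D4:**
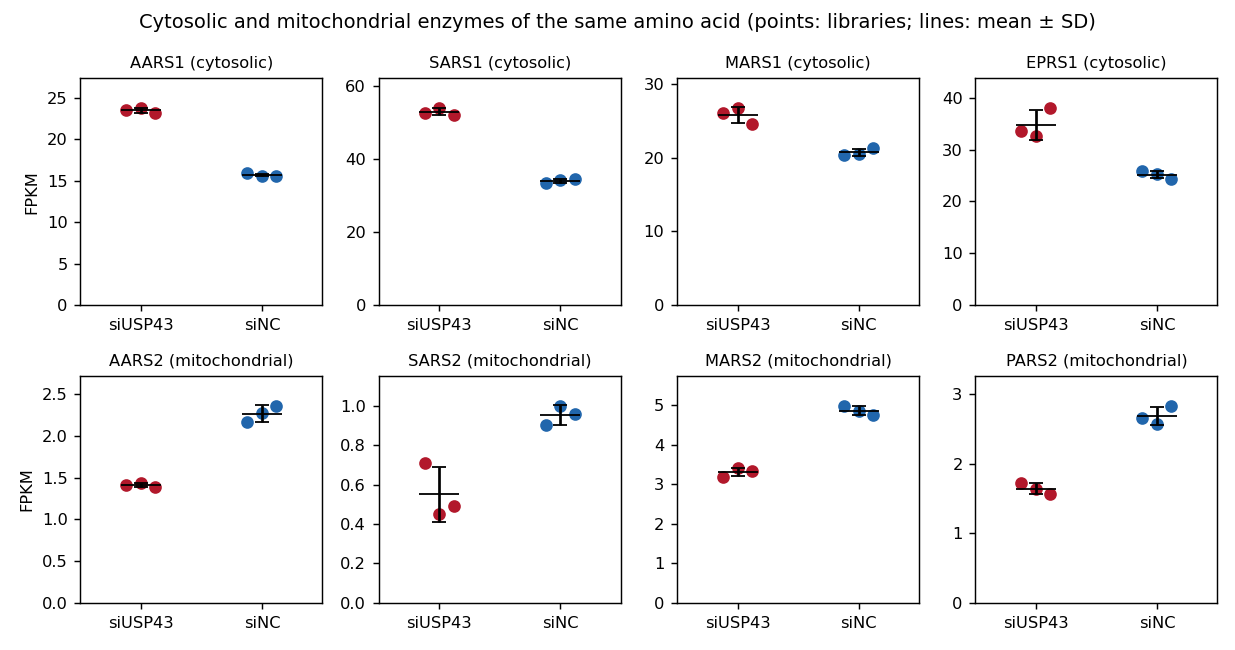
FPKM of AARS1, SARS1, MARS1 and EPRS1 (upper row) and of AARS2, SARS2, MARS2 and PARS2 (lower row) in 3 siUSP43 and 3 siNC libraries, with points for libraries, lines for the mean and bars for the SD, on axes that start at 0. All siUSP43 points lie above the siNC points in the upper row and below them in the lower row.

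In other pairs the groups overlapped or the ratio was lower in siUSP43. FARSB to FARS2 stood at 7.03 in siUSP43 and 6.92 in siNC, while FARSA to FARS2 was 9.19 in siUSP43 and 14.7 in siNC. NARS1 was 28.9 times NARS2 in siUSP43 and 37.3 times in siNC. For isoleucine, histidine and tyrosine the mitochondrial gene had the higher FPKM of the pair in both groups, with IARS1 at 0.27 times IARS2 in siUSP43 and 0.28 times in siNC. That order rests on exonic size, since IARS1, HARS1 and YARS1 rank above IARS2, HARS2 and YARS2 by coding length.

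Summed over the genes of each compartment, cytosolic FPKM came to 573.7 ± 5.81 in siUSP43 and 495.3 ± 3.73 in siNC, and mitochondrial FPKM to 119.7 ± 2.15 in siUSP43 and 110.4 ± 1.33 in siNC (SD, n = 3 each). IARS2 alone gave 50.1 FPKM of the mitochondrial sum in siUSP43 and 42.3 FPKM in siNC, so most of the difference in that sum is this gene. The mitochondrial share of the sum of both compartments was 17.3 ± 0.223% in siUSP43 and 18.2 ± 0.0819% in siNC. The 38 genes held 0.477 to 0.484% of all gene counts in siUSP43 and 0.408 to 0.415% in siNC libraries.

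Several synthetase genes start back to back with a neighbour on the other strand, which bears on whether both transcripts of a start region moved together. HARS1 and HARS2 are such a pair, on chromosome 5 (GRCh38, 140673035 to 140691537, minus strand, and 140691430 to 140699305, plus strand), and their ends overlap by 108 bases. HARS1 had 7.18, 7.50 and 6.57 FPKM in siUSP43 libraries, against 6.01, 5.91 and 6.05 FPKM in siNC libraries, and rose by 0.22 (SE 0.06, adjusted p = 0.00467). HARS2 had 10.49, 10.79 and 10.61 FPKM in siUSP43 libraries, against 10.67, 9.45 and 10.46 FPKM in siNC libraries, and its 0.04 (SE 0.06) did not pass and stood at -0.012 without siNC replicate 2.

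AARS1 rose while DDX19B, an RNA helicase gene that starts beside it, fell by 0.32 (SE 0.06, adjusted p = 0.00116). UBFD1, the neighbour of EARS2, fell by 0.80 (SE 0.05, adjusted p = 2.35e-07). RARS2 and FARS2 rose while their neighbours ORC3 (0.06) and LYRM4 (-0.16) did not pass. MRPS12, a mitochondrial ribosomal protein gene beside SARS2, stood at -0.18 and TARS1-DT beside TARS1 at 0.22, and neither passed.

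Genes that act around tRNA charging are given from lists chosen with earlier results of these data known. Beside each count stand the 28.0% of all tested genes that rose and the 28.1% that fell. Of 22 tested tRNA export and processing genes 4 rose and 9 fell, with a median log2 fold change of -0.11. The number that rose was 2 without siUSP43 replicate 1, where ELAC1 did not pass, and the number that fell was 5 without siNC replicate 3. POP1, a protein of RNase P, fell by 0.52, TSEN54, a subunit of the tRNA splicing endonuclease, fell by 0.39, ELAC1, a tRNA 3′ endonuclease, rose by 0.40 and TSEN15, another subunit of the splicing endonuclease, rose by 0.37. XPOT, the exporter of tRNA from the nucleus, had 22.50, 21.87 and 24.23 FPKM in siUSP43 libraries, against 23.60, 23.48 and 21.84 FPKM in siNC libraries, and its log2 fold change of -0.02 (SE 0.05) did not pass.

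Among 4 tested genes of trans-editing and selenocysteine synthesis, DTD1, which removes D-amino acids from tRNA, fell by 0.36 and DTD2 rose by 0.50, with overlapping groups and a call that ended in 7 of the 16 alternatives that tested it, among them those without siNC replicate 2 or 3 and without siUSP43 replicate 1 or 3. AARSD1 (0.05) and SEPSECS (-0.08) did not pass. Of the genes that complete glutamine and formyl-methionine tRNA in mitochondria, QRSL1 rose by 0.31, GATC fell by 0.25 but did not pass once siNC replicate 1 was left out, and GATB (-0.03) and MTFMT (-0.01) did not pass. Of 10 mitochondrial translation factors 4 rose and 0 fell, against 28.0% and 28.1% of all tested genes, with a median of 0.16: MRRF, the ribosome recycling factor, at 0.40, the initiation factor MTIF3 at 0.32, and GFM1 and GFM2, elongation factor G proteins, at 0.27 and 0.23. Of 6 tested cytosolic elongation factor genes 1 rose and 1 fell, EEF2 at 0.17 and EEF1B2 at -0.21, while EEF1D (0.13) and EIF5A (0.08) did not pass. Without siUSP43 replicate 3 the number that rose was 4, and the call of EEF1B2 ended under quantile normalization.

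ATF4 itself had 93.49, 100.70 and 89.04 FPKM in siUSP43 libraries, against 88.08, 90.83 and 93.98 FPKM in siNC libraries, a log2 fold change of 0.04 (SE 0.05, adjusted p = 0.586). Its groups overlapped. These are mRNA levels, and ATF4 is known to be controlled mainly at translation, which was not measured here. Of 20 tested genes of the ATF4 response 12 rose and 5 fell, against 28.0% and 28.1% of all tested genes, with a median of 0.29. ATF3 rose by 1.00 and SLC7A11, the cystine transporter, by 0.74, while CEBPB fell by 0.99 and DDIT4 by 0.85. Of 4 tested genes of the eIF2 kinases and GCN1, EIF2AK4 and EIF2AK1 rose by 0.22 and 0.11, EIF2AK2 fell by 0.22 and GCN1 (-0.03) did not pass. The number of these that rose was 0 without siNC replicate 2 or siNC replicate 3, and 1 or 2 in the other alternatives.

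Beside WARS1, 6 interferon gamma response genes were tested, of which 0 rose and 3 fell, against 28.0% and 28.1% of all tested genes, with a median log2 fold change of -0.17. IRF1 fell by 1.03, TAP1 by 0.49 and PSMB9, with overlapping groups, by 0.24, and GBP1 (-0.09) did not pass. The call of PSMB9 ended in 9 of 17 alternatives, among them those without siNC replicate 2 or 3 and without siUSP43 replicate 1 or 3. WARS1 at 0.04 stood above all 6.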

How the data were processed

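The table deposited by the authors holds raw read counts per gene and FPKM for each library, per the file headers. The submitters' processing notes list cutadapt 2.6, HISAT2 2.2.1 and build GRCh38. For the read counter, annotation release and strand setting, nothing is given in the sources. An exonic size of each gene, in bases, is another deposited value of no fixed unit class and enters FPKM. Members and gene lists were chosen with earlier results of these data known.

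Groups and replicate numbers came from the sample titles. edgeR 4.0.16 (R 4.3.3) fitted group alone to the counts with TMM scaling, quasi-likelihood tests and Benjamini-Hochberg adjustment over the 11417 genes whose FPKM averaged 1 or more, with 0.05 as threshold. Fold changes are siUSP43 over siNC, and SE is that of the log2 fold change. The steps were tested on simulated counts. DESeq2 1.42.0, limma 3.58.1 (on log2(FPKM + 1) or log2(FPKM + 0.1)), other scalings and filters, a replicate block and leaving out each library were the alternatives. Library totals ran from 21430574 to 25577200 counts. No pair of libraries of a group agreed within counting noise, with a chi-square per degree of freedom of 2.29 to 15.1.

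Libraries with the same replicate number did not deviate together (correlations -0.01, -0.13 and -0.26), and the main fit did not pair them. With 3 libraries a group such correlations are tied to each other and cannot show whether same-numbered libraries were prepared together. Per-library FPKM was given for the 8 cytosolic and 6 mitochondrial called genes with the largest changes and their partners, apart from genes not reported here singly, with some others chosen after their values were seen (HARS1, HARS2, QARS1, YARS1 and WARS1). The 4 largest changes of each linked list were named, with ATF4, XPOT and the scaffold genes. Exon numbers and coding lengths came from GENCODE 29.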

Additional observations from a re-analysis of the deposited data

How the results depend on the processing

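Of the 36 tested synthetase genes, 27 kept their direction and their side of the threshold in each of the 17 alternatives in which they could be fitted, 23 of them called genes. HARS2, which did not pass in any, had log2 fold changes of -0.012 (without siNC replicate 2) to 0.073 when a library was left out. No called gene changed direction in any alternative. With a mean of at least 5 FPKM as the filter, 1889 genes rose and 1892 fell of all tested, with 3 mitochondrial synthetase genes rising and 1 falling, since fewer genes are tested. The number of cytosolic genes that fell was 1 with DESeq2, limma on log2(FPKM + 1), limma on log2(FPKM + 0.1) and the replicate block, the gene lost being YARS1, and 1 to 3 when a library was left out. The number of mitochondrial genes that fell was 5 in the limma fit with array weights, which stopped before it converged. In the paired fit with the replicate block 12 cytosolic genes rose, with TARS3, IARS1 and RARS1 no longer past the threshold, while 7 mitochondrial genes rose and 3 fell, and 2775 of all tested genes rose and 2841 fell. When a library was left out, 12 to 15 cytosolic genes rose, 7 mitochondrial genes rose and 3 to 4 fell, while of all tested genes 2710 to 3284 rose and 2707 to 3266 fell. The median log2 fold change over the alternatives was 0.23 to 0.28 for cytosolic and 0.13 to 0.22 for mitochondrial genes, and no scaling moved the median of all genes by 0.1 or more. With a pseudocount of 1 the cytosolic to mitochondrial ratio was higher in siUSP43 in 9 pairs and lower in 4. SARS2 and VARS2 are limited by their counts. Each also shares all or nearly all of its span with an untested gene on the same strand, so low counts need not mean low expression.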
